A study of Rattus norvegicus with 15 samples.

Results

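A set of 10 genes that mark retinal ganglion cells (RGCs) was followed through the retinas of NaIO3-administered rats. They are Slc17a6, Pou4f1, Pou4f2, Pou4f3, Rbpms, Sncg, Nefl, Nefm, Nefh and Thy1. The genes were taken by their symbols as known RGC markers, and no value entered that rule. Earlier results of these data were known when they were chosen, so the known patterns carry no independent support. They are 10 of the 20375 genes listed, and all 10 were among the 15424 genes tested. In whole retinas, Slc17a6 and Pou4f2 fell in the MSC-transplanted group relative to untreated retinas. That is 2 of 10 genes, where 17.4% of all tested genes were called in that comparison and 6.37% were called lower. The count is near the share of all genes called. It was 0 without any 1 of NT 1, NT 2, NT 3 or MSC 1, and 0 with a fold change over 2 required. In sham retinas 0 of the 10 genes passed the test against untreated retinas, where 0.888% of all tested genes did. Between MSC and sham 0 of 10 passed, where 0% of all tested genes did, so that count is not particular to the RGC genes. The study's own DESeq2 test on counts reported many genes changed between MSC and sham. The 0 of 10 in this fit therefore does not show that the groups were alike.

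RGCs are the output neurons of the retina. They collect signals from bipolar and amacrine cells and send them to the brain through axons that form the optic nerve. Pou4f1, Pou4f2 and Pou4f3 encode the Brn3 transcription factors, which specify and maintain RGC types. Slc17a6 encodes the vesicular glutamate transporter VGLUT2, which loads the transmitter that RGC axons release. Nefl, Nefm and Nefh encode the light, medium and heavy neurofilament subunits of large axons. Rbpms is an RNA-binding protein, Sncg is gamma-synuclein, and Thy1 is a surface glycoprotein. NaIO3 is toxic to the retinal pigment epithelium, and the photoreceptors that depend on it degenerate afterwards.

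The data were 15 libraries of messenger RNA from whole retinas of wild type Sprague-Dawley rats, 3 in each of 5 groups. The labels give the age as postnatal week 12 and the collection as day 31 after transplantation in all groups, NT included. The no-treatment (NT) group received neither NaIO3 nor cells. The sham group received systemic NaIO3 at 40 mg/kg and an intravitreal injection of the saline vehicle without cells. The MSC group received the same NaIO3 dose and intravitreal human mesenchymal stem cells from Wharton's jelly. The MSC-EPO group received NaIO3 and the same kind of cells, which carried a lentiviral construct for human erythropoietin and GFP. The DPSC group received NaIO3 and cells that the labels name DPSC without spelling the name out. By the study's methods, the injection went into the right eye before NaIO3 was given. The labels and the methods give different cell densities, so no dose of cells is given. Immunosuppression (dexamethasone, then oral cyclosporin) is tied by the labels to rats with xenografts, while the study's methods do not restrict it to them. Whether sham rats received it is not given in the sources used here, and where the compared group did not, it cannot be told apart from the cells. The study calls its libraries biological replicates. The labels name no rat for a library, and p-values measure the spread between these libraries.

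All values are regularized log (rlog) values, a log2 scale on which the authors had already corrected for library size and pulled each value toward its gene's mean. A difference of 1 is a 2-fold change on that scale, and the shrinkage makes differences smaller than those of the counts. They hold no counts, so library depth is unknown. Differences between groups were tested with limma in a single fit of the 15 libraries. The Benjamini-Hochberg adjustment ran over the 15424 tested genes in each comparison, and a gene was called at an adjusted p under 0.05. In whole retina, fewer RGCs and less RNA per RGC cannot be told apart.

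Promoter sequences of the Slc17a6 and Pou4f2 genes are shown because these are the genes whose level passed the test in the MSC group. They are RefSeq sequences of build GRCr8, the 250 bases that precede the annotated start, on the plus strand and written 5′ to 3′. Capitals mark the letters GGGCGG, the core of a GC box, on either strand.
Slc17a6, chr1:110348197-110348446: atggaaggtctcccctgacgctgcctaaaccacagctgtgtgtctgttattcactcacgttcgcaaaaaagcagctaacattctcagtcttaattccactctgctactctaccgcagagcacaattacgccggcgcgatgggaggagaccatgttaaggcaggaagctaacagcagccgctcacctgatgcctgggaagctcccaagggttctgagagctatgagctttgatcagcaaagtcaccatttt
Pou4f2, chr19:46390708-46390957: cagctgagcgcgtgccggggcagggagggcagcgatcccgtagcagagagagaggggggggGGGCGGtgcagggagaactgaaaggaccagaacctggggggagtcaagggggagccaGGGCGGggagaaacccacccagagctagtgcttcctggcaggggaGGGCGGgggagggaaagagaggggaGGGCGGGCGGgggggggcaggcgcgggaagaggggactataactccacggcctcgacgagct
Promoters were matched for 5 of the 10 genes (Slc17a6, Pou4f1, Pou4f2, Pou4f3 and Sncg). Searched on both strands were 5 motifs: AATTAAT and TAATTA, cores that homeodomain factors prefer, CAGATG, an E-box of proneural factors, GGGCGG, and TATAAA, the TATA box. Of these, only GGGCGG occurred in the 5 promoters. It occurred 5 times in Pou4f2, with matches 62 and 58 bases before the start overlapping each other, once in Pou4f3 and once in Sncg, and not in Slc17a6 or Pou4f1. Over all 33469 promoters of that length, 30.5% held GGGCGG, 14.0% CAGATG, 12.9% TATAAA, 4.86% TAATTA and 2.68% AATTAAT. The promoter of Slc17a6 had a GC content of 50.8% and that of Pou4f2 70.4%. These letters are a description of the window and do not show binding.

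The tissue label was checked first. Each of the 10 RGC genes had an rlog value of at least 5.41 in every library. Of 9 rod markers, 9 were called lower than in NT in MSC and in MSC-EPO, 7 in DPSC and 1 in sham. Their mean level relative to NT was -0.87 to -0.66 in sham, -1.5 to -1.31 in MSC, -1.76 to -1.37 in MSC-EPO and -1.56 to -0.78 in DPSC. The library MSC 1 stood apart from MSC 2 and 3 in several marker lists, and MSC-EPO 3 from MSC-EPO 1 and 2. Counts of calls, medians and called differences of the RGC genes that moved by over 1.5 times without either of them, or without another library, are given with the comparison. With both left out, a setting chosen after the data were seen, 7 of 9 rod markers were called lower in sham. The rod count in DPSC was 4 without any 1 of NT 1, NT 2, NT 3, DPSC 1 or DPSC 2, and the 1 call in sham was lost without any 1 of the NT or sham libraries.

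Pou4f2 was the Brn3 gene with the largest difference between group means. Its rlog values in NT were 6.83, 6.80 and 6.74. They were 6.63, 6.69 and 6.38 in sham, and 5.96, 6.13 and 6.23 in MSC. All 3 MSC libraries lay below all NT and sham libraries. MSC-EPO retinas had Pou4f2 values of 6.23, 6.19 and 7.01, and DPSC retinas 6.65, 6.14 and 6.86. MSC-EPO 3 and DPSC 3 were thus above every NT library while MSC-EPO 1, MSC-EPO 2 and DPSC 2 were near the highest MSC library.

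Pou4f3 followed a similar order at a lower amplitude. In NT its values were 6.03, 5.96 and 5.99, and in MSC they were 5.55, 5.43 and 5.67, with no overlap. Sham (5.89, 6.09 and 5.82), MSC-EPO (5.41, 5.77 and 6.28) and DPSC (5.96, 5.58 and 6.04) each had libraries on both sides of the NT range. Pou4f1 differed less between groups. Its values were 6.26, 6.35 and 6.43 in NT, 6.36, 6.27 and 6.17 in sham, and 5.87, 5.99 and 6.34 in MSC. In MSC-EPO they were 5.81, 6.19 and 6.002, all below the lowest NT library, and in DPSC 5.99, 5.84 and 6.26. For all 3 Brn3 genes the order of group means began with NT and then sham. No neighbouring groups in these orders passed a test against each other, where such a pair was tested.

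Slc17a6 had the largest spread of group means among the 10 genes. NT retinas had rlog values of 10.69, 10.79 and 10.64. Sham retinas had 10.59, 10.56 and 10.39, each below the lowest NT library. In MSC retinas Slc17a6 stood at 9.51, 9.99 and 10.23. MSC-EPO retinas had 10.07, 9.93 and 10.55, and DPSC retinas 10.47, 9.94 and 10.63. All 12 libraries from NaIO3 rats were therefore below all 3 NT libraries for this gene, by a narrow margin in DPSC 3 (10.63 beside the lowest NT value of 10.64). The group means ran from NT (10.71 ± 0.08, SD, n = 3) through sham (10.51 ± 0.11), DPSC (10.35 ± 0.36) and MSC-EPO (10.18 ± 0.33) to MSC (9.91 ± 0.37).

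Sncg and Thy1 encode proteins that are abundant in RGC bodies and axons. Sncg values were 11.50, 11.59 and 11.38 in NT and 10.84, 11.01 and 11.20 in MSC, without overlap. Sham ranged from 11.28 to 11.95, MSC-EPO from 11.04 to 12.12 and DPSC from 10.96 to 11.77, and each of these ranges enclosed the whole NT range. Thy1 values were 11.71, 11.79 and 11.56 in NT, and 11.08, 11.42 and 11.63 in MSC. MSC 3 was inside the NT range of Thy1, and the other two were below it.

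Rbpms did not follow the other genes. Its values were 7.55, 7.42 and 7.13 in NT and 7.57, 7.63 and 7.59 in sham, so every sham library was above every NT library. MSC retinas had 7.56, 7.16 and 7.37, MSC-EPO retinas 7.27, 7.46 and 7.52, and DPSC retinas 7.79, 7.50 and 7.47. Rbpms is also expressed by vascular smooth muscle and pericytes. The mean level of 9 pericyte and smooth muscle markers relative to NT was 0.34 to 0.78 in sham and -0.57 to 0.39 among the NT libraries, and its part in the Rbpms values was not tested.

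The neurofilament genes were highest in sham on average. Nefl was 12.53, 12.54 and 12.43 in NT, 12.71, 12.92 and 12.40 in sham, and 11.63, 12.08 and 12.34 in MSC. The MSC libraries were below every NT and sham library for Nefl. For Nefm, NT had 11.47, 11.50 and 11.35, sham had 11.72, 11.75 and 11.48, and MSC had 10.86, 11.09 and 11.65. For Nefh, NT had 11.19, 11.35 and 11.11, sham had 11.43, 11.94 and 11.08, and MSC had 10.62, 11.01 and 11.37. MSC 3 was above the NT range in both Nefm and Nefh, so those groups overlapped. In MSC-EPO the 3 neurofilament genes were below the NT range in replicates 1 and 2 and above it in replicate 3.

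**Figure D1:**
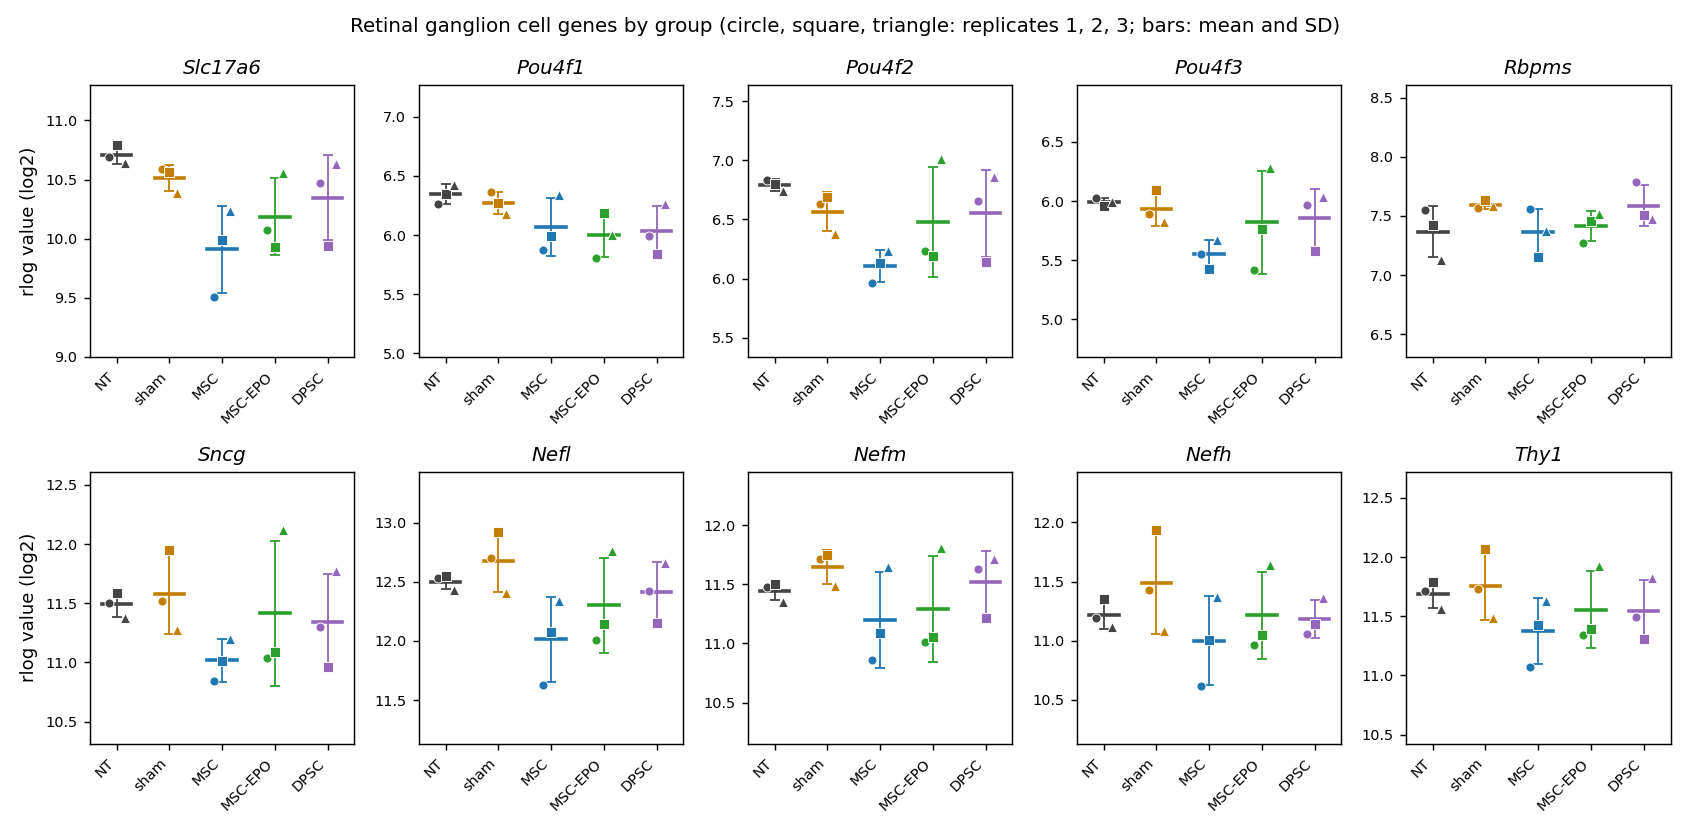
Rlog values (log2) of the 10 RGC genes on the vertical axes by group on the horizontal axes, with 3 libraries a group as points and bars for the group mean and SD. Slc17a6 lies at 10.64 to 10.79 in NT and at 9.51 to 10.23 in MSC, while Rbpms shows no such step.

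The first comparison asked what NaIO3 with the vehicle injection did to these genes. Between sham and NT, 0 of the 10 RGC genes passed the test, where 0.888% of all tested genes did, and 0 had an unadjusted p under 0.05, where 12.4% of all tested genes did. The largest difference was that of Nefh, 0.27 higher in sham (95% interval -0.25 to 0.78, adjusted p = 0.76). Pou4f2 was 0.23 lower (-0.70 to 0.25, adjusted p = 0.785) and Slc17a6 0.20 lower (-0.65 to 0.26, adjusted p = 0.808). These intervals do not show that the levels were alike. The ranges of sham and NT did not overlap for Slc17a6 and Pou4f2, which were lower (15.3% of all genes), and for Rbpms, which was higher (16.6%). Both shares of members, 2 and 1 of 10, are near those of all genes. The median difference over the 10 genes was 0.08, and 4 of 10 were below 0 (48.8% of all genes). The median was -0.08 without sham 2, 0.22 without sham 3, 0.02 without NT 3 and 0.13 without NT 2.

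MSC-transplanted retinas were then compared with NT. Slc17a6 fell by 0.80 on the log2 scale (SE 0.21, 95% interval -1.26 to -0.34, adjusted p = 0.0212), which is 42.5% lower. Pou4f2 fell by 0.68 (SE 0.22, -1.16 to -0.21, adjusted p = 0.0488), which is 37.7% lower. The test thus called 2 of the 10 RGC genes, both lower, where 17.4% of all tested genes were called and 6.37% were called lower. The count is near the share of all genes called. With a fold change over 2 also required, 0 of 10 were called (6.7% of all genes). Nefl was 0.49 lower (adjusted p = 0.152), Sncg 0.47 lower (adjusted p = 0.276) and Pou4f3 0.44 lower (adjusted p = 0.128). Thy1 (-0.31), Pou4f1 (-0.28), Nefm (-0.24) and Nefh (-0.22) had intervals that included 0, and Rbpms differed by -0.01 (-0.31 to 0.30). All 10 differences were below 0, against 49.7% of all genes, with a median of -0.38 against 0.00 for all genes. The 10 genes varied together, so these are not 10 separate observations. Also below 0 were 11 of 11 amacrine (median -0.35), 9 of 10 bipolar (-0.16) and 2 of 3 horizontal cell markers (-0.32). Of the general neuronal genes, 8 of 9 were (-0.29), so this direction is not particular to the RGC genes. The MSC and NT ranges did not overlap for 5 of 10 genes (Slc17a6, Pou4f2, Pou4f3, Sncg and Nefl), all lower in MSC, where 21.2% of all genes were lower without overlap. Of all tested genes, 1.98% had a lower difference than Slc17a6 and 2.98% a lower difference than Pou4f2.

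Both calls rested on few libraries. Without NT 1, NT 2 or NT 3, or without MSC 1, 0 of 10 genes were called, and without MSC 2 or MSC 3 the call was Slc17a6 alone. Over these settings the difference of Slc17a6 ran from -0.96 to -0.60 and that of Pou4f2 from -0.74 to -0.61. The median over the 10 genes was -0.24 without MSC 1, with all 10 still below 0.

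Relative to sham, MSC retinas had lower values of all 10 genes (50.1% of all genes were lower), with 0 of 10 called (0% of all genes were called). At an unadjusted p under 0.05, limma counted 2 of 10 (Slc17a6 and Nefl), where 13.3% of all tested genes met it. Nefl was 0.66 lower than in sham (95% interval -1.14 to -0.19, adjusted p = 0.195) and Slc17a6 0.60 lower (-1.06 to -0.15, adjusted p = 0.219). The remaining differences lay between -0.56 (Sncg) and -0.20 (Pou4f1). The ranges did not overlap for 6 of 10 genes (Slc17a6, Pou4f2, Pou4f3, Rbpms, Sncg and Nefl), all lower in MSC, where 11.3% of all genes were lower without overlap. The median difference was -0.45, and that of all genes was 0.00. General neuronal genes were also below sham for 9 of 9 (median -0.18), amacrine markers for 9 of 11 (-0.18) and bipolar markers for 9 of 10 (-0.13).

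In MSC-EPO retinas, 0 of 10 genes were called against NT (11.6% of all genes were called), and 2 of 10 had an unadjusted p under 0.05 (27% of all genes). These were Slc17a6, 0.52 lower (95% interval -0.98 to -0.07, adjusted p = 0.13), and Pou4f1, 0.35 lower (-0.67 to -0.02, adjusted p = 0.156). Both were also without overlap with NT, where 15% of all genes were lower without overlap. The difference was below 0 for 9 of 10 genes (50.5% of all genes), with a median of -0.16. MSC-EPO 3 decided this result. Without it, all 10 differences were below 0 with a median of -0.41, and Slc17a6 (-0.71, adjusted p = 0.0354) and Pou4f2 (-0.58, adjusted p = 0.0419) were called. Against sham, 0 of 10 passed (0.0259% of all genes) and 0 had an unadjusted p under 0.05 (8.31%), although all 10 values were lower (49.7% of all genes), with a median of -0.24. The median against NT was -0.02 without MSC-EPO 1, with 6 of 10 below 0, and -0.09 without MSC-EPO 2, with 7 of 10. Against sham the median was -0.44 without MSC-EPO 3, -0.13 without MSC-EPO 1, with 7 of 10 below 0, and -0.11 without sham 2. Only Rbpms had no overlap with sham, lower by 0.18 (6.81% of all genes were lower without overlap). Axonal cytoskeleton and transport genes were also below sham for 15 of 15, general neuronal genes for 6 of 9 and amacrine markers for 5 of 11.

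DPSC retinas had 0 of 10 genes called against NT (2.85% of all genes) and 0 at an unadjusted p under 0.05 (16.8%). Slc17a6 was 0.36 lower (95% interval -0.82 to 0.09) and Pou4f1 0.31 lower (-0.64 to 0.01), while Rbpms was 0.22 higher (-0.09 to 0.53). The 3 DPSC libraries did not overlap with NT for Slc17a6 alone (15.7% of all genes were lower without overlap). The difference was below 0 for 8 of 10 genes (49.4% of all genes), with a median of -0.14. Against sham, 0 of 10 were called (0.0195% of all genes) and 0 had an unadjusted p under 0.05 (2.37%). All 10 were lower than in sham (48.2% of all genes), with a median of -0.19, and 0 of 10 were lower without overlap (5.07% of all genes). These medians rested on DPSC 2. Without it, 5 of 10 genes were below 0 in both comparisons, with a median of -0.0025 against NT and -0.013 against sham. Leaving out DPSC 3 gave medians of -0.25 and -0.33, and leaving out sham 2 gave -0.07 against sham, with 7 of 10 below 0. With all libraries, axonal cytoskeleton and transport genes were below sham for 15 of 15, general neuronal genes for 7 of 9 and amacrine markers for 8 of 11.

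The last comparison set the erythropoietin-expressing cells against the unmodified cells. Between MSC-EPO and MSC, 0 of 10 RGC genes were called (0% of all genes) and 0 had an unadjusted p under 0.05 (3.79%). The difference was below 0 for 1 of the 10 (54.8% of all genes), with a median of 0.24 and of -0.02 for all genes, and 0 of 10 were lower without overlap (2.18% of all genes). The largest were Sncg, 0.40 higher in MSC-EPO (95% interval -0.20 to 1.00), and Pou4f2, 0.37 higher (-0.10 to 0.84), and Pou4f1 was 0.07 lower (-0.39 to 0.25). In the same comparison, 1 of 11 amacrine markers and 2 of 9 general neuronal genes were below 0. Within replicate numbers, the mean over the 10 genes was 0.17, 0.09 and 0.36 higher in MSC-EPO 1, 2 and 3 than in the MSC library of the same number. Pou4f2, Sncg, Nefl and Nefh were higher in MSC-EPO for all 3 numbers. The labels do not pair these libraries. With the replicate number as a block and these 6 libraries alone, 0 of 10 were called (lowest adjusted p = 0.981). The median over the 10 genes was 0.08 without MSC 1, 0.02 without MSC-EPO 3 and 0.37 without MSC 3. Without MSC 1 and MSC-EPO 3 together it was -0.12, and Slc17a6, Sncg, Nefl, Nefm, Nefh and Thy1 turned to the other direction. The comparisons with NT share the NT libraries, and those with sham share the sham libraries, so they are not independent of each other.

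**Figure D2:**
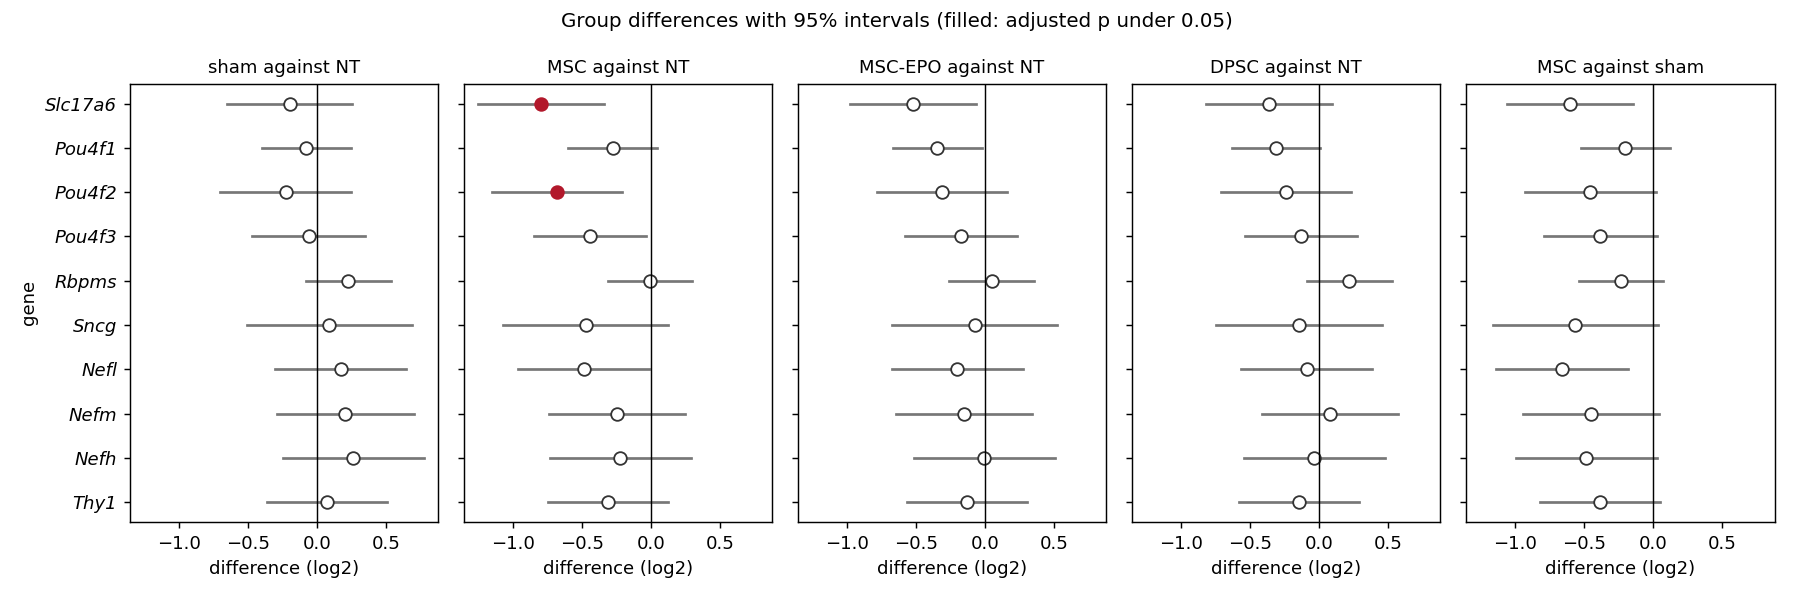
Differences between group means (log2, horizontal axes) for the 10 RGC genes (vertical axis) in 5 of the 8 comparisons, with 95% intervals from limma as lines. The filled points, Slc17a6 at -0.80 and Pou4f2 at -0.68 in MSC against NT, are those with an adjusted p under 0.05.

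Libraries of the same group differed widely in these genes. MSC 1, MSC 2, MSC-EPO 1 and MSC-EPO 2 each had 9 of 10 genes below the NT range, and sham 3 and DPSC 2 each had 8. At the other end, sham 2, MSC-EPO 3 and DPSC 3 each had 7 of 10 above the NT range. The mean level of the 10 genes relative to NT was -0.61, -0.42 and -0.15 in the MSC libraries, -0.44, -0.33 and 0.21 in MSC-EPO, -0.08, -0.38 and 0.10 in DPSC, and 0.06, 0.23 and -0.15 in sham. The NT libraries lay between -0.08 and 0.05.

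**Figure D3:**
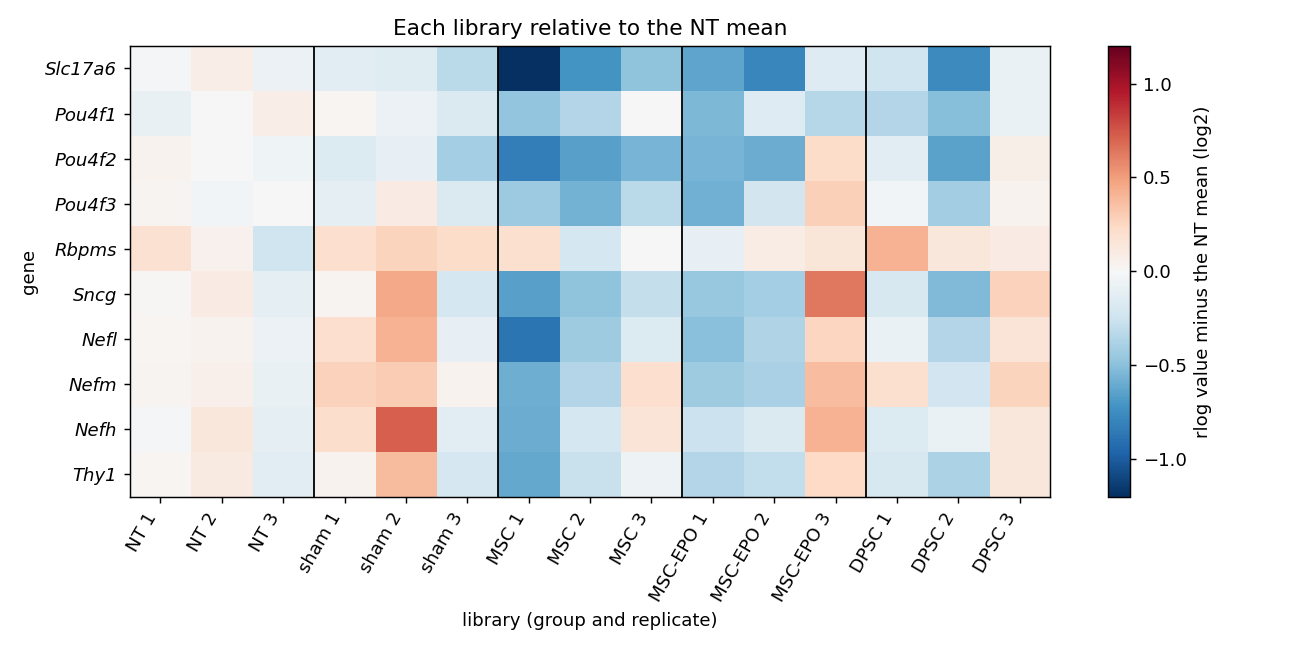
Rlog value minus the NT mean (log2, colour) for each RGC gene (vertical axis) in each of the 15 libraries (horizontal axis). MSC 1 is lowest, with a mean of -0.61 over the 10 genes, and MSC-EPO 3 is higher than NT, at 0.21, although its group's other libraries are at -0.44 and -0.33.

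The 10 genes varied together over the 15 libraries, apart from Rbpms. Pearson's r between Nefl and Thy1 was 0.953, between Sncg and Thy1 0.946 and between Slc17a6 and Pou4f2 0.921. Pou4f1 was less like the others (0.469 to 0.69 with genes other than Rbpms), and Rbpms had r between -0.087 and 0.411 with the other 9. These values are a description over libraries that share their groups and carry no test. The genes outside the 10 with the most similar pattern to their mean were Fbxo2 and Aldoc (r = 0.97 each), Klc2 and Nrn1 (0.965 each) and Ankrd40 (0.953), over 15 libraries. Among single members, the genes nearest to Slc17a6 were Fdft1 (r = 0.969) and Hmgcs1 (0.96), enzymes of sterol synthesis, then Inpp5e (0.955).

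Other cell types moved in the same libraries. The mean level of 9 general neuronal genes relative to NT was -0.61, -0.25 and -0.07 in MSC, -0.34, -0.27 and 0.06 in MSC-EPO, -0.26, -0.33 and 0.00 in DPSC, and -0.01, 0.05 and -0.19 in sham. Their lowest and highest libraries within MSC, MSC-EPO and DPSC were those of the RGC genes. Amacrine cell markers had 0 of 11 called in each comparison with NT, 2 of 11 lower in MSC-EPO without MSC-EPO 3, and a level of -0.85 in MSC 1. With each library centred on its general neuronal genes, a setting chosen after the data were seen, 6 of the 10 RGC genes were below 0 in MSC against NT, the median was -0.07, and Slc17a6 alone was called.

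Within each cell-treated group, the library with the lowest RGC genes had the most immune marker RNA. The level of 10 macrophage and microglia markers relative to NT was 3.70, 2.54 and 2.04 in MSC, 2.54, 2.08 and 1.65 in MSC-EPO, 0.96, 2.30 and 1.099 in DPSC, and 1.38, 1.64 and 0.80 in sham. In sham the order was the opposite, since sham 3 was lowest in both lists and sham 2 highest in both. All 10 were called higher in MSC against NT, 9 in MSC-EPO, 2 in DPSC and 0 in sham. T and NK cell markers were called higher for 9 of 9 in MSC and 0 of 9 in the other groups, with levels of 3.22, 1.54 and 0.87 in MSC and 0.45 to 1.26 in MSC-EPO. The T and NK count in MSC was 3 to 5 without any 1 of the NT libraries, and that in MSC-EPO was 1 without MSC-EPO 3 and 6 without MSC 1 and MSC-EPO 3. The macrophage and microglia count in MSC-EPO was 5 without NT 3, that in DPSC was 0 without any 1 of NT 1, NT 2, NT 3, DPSC 2 or DPSC 3, and those in sham and DPSC were 5 and 8 without MSC 1 and MSC-EPO 3. Cd3e, a subunit of the T cell receptor complex, had rlog values of 9.67, 6.48 and 5.65 in MSC and 4.06 to 4.44 in NT. An rlog value is relative to the rest of its library. The part of these cells in the lower RGC values was not tested. Lens and cornea markers were also uneven (-0.84 to 2.72 in MSC-EPO, highest in replicate 3, and -0.81 to 3.82 in DPSC), with 0 of 11 called higher in any comparison with NT, and 4 higher in DPSC without DPSC 2.

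**Figure D4:**
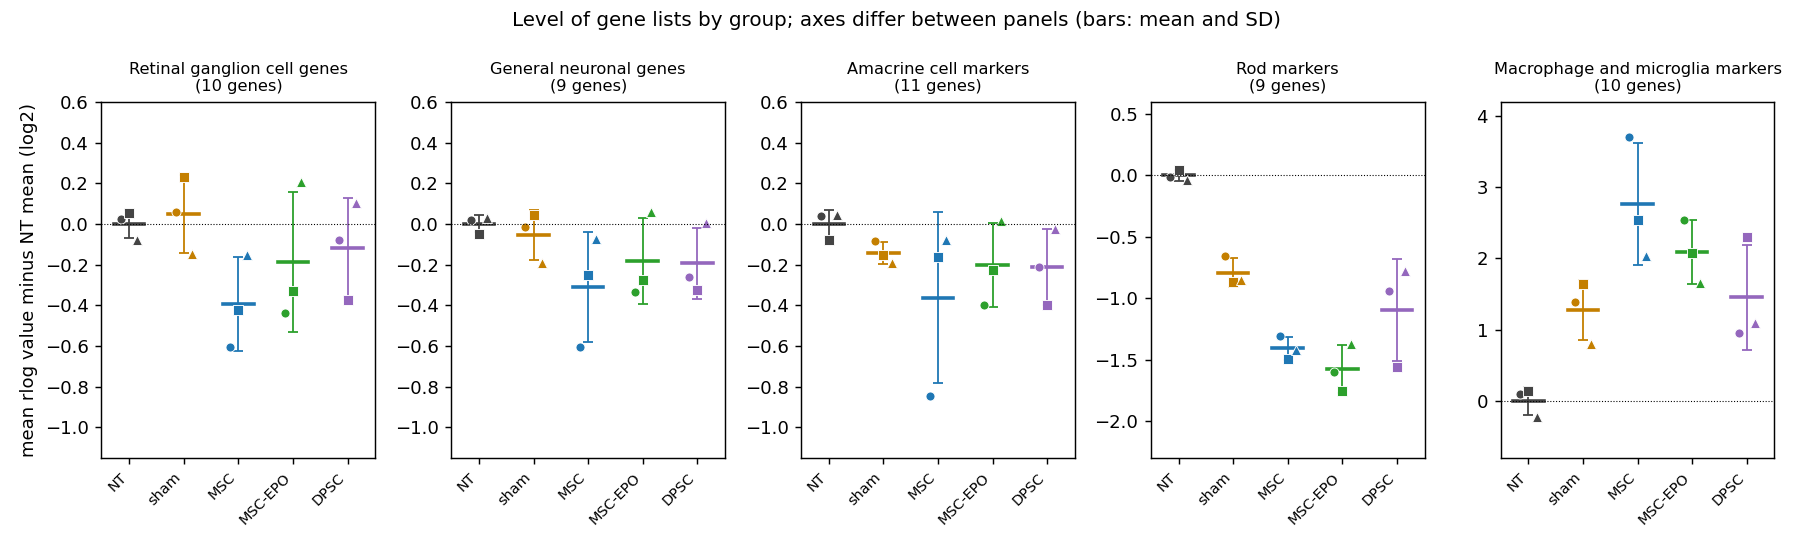
Mean rlog value minus the NT mean (log2, vertical axes, which differ between panels) of 5 gene lists by group, with points for libraries and bars for the mean and SD. RGC genes and general neuronal genes are lowest in MSC 1 (both -0.61), where macrophage and microglia markers are highest (3.70).

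Differences between genes within a library do not depend on a scaling factor of that library. Of the 45 pairs of the 10 genes, 6 had a difference in all 12 NaIO3 libraries that lay outside the range of the 3 NT libraries, where 15.6% of all pairs of tested genes did, so this count is not particular to the RGC genes. All 6 lay below that range, and they were Slc17a6 minus Sncg, Nefl, Nefm, Nefh or Thy1, and Pou4f2 minus Nefm. The pairs with Slc17a6 share that gene, which alone was below every NT library in all 12, so they are not independent of each other. For Slc17a6 minus Nefl, NT had -1.84, -1.75 and -1.79, and the other libraries lay between -2.35 and -1.93. The sham values of this pair were -2.12, -2.35 and -2.01, and the MSC values -2.12, -2.09 and -2.11. MSC-EPO 3, whose RGC genes were high, had -2.20, beside -1.93 and -2.21 in its group. For Pou4f2 minus Nefm, NT lay between -4.70 and -4.61 and the other libraries between -5.42 and -4.78. In the pairs picked, Slc17a6 was low relative to each of the 3 neurofilament genes in all 12 NaIO3 libraries, sham included. In sham against NT, 0 of the 10 RGC genes were called. Pou4f2 was so relative to Nefm alone, since Pou4f2 minus Nefl reached the NT range or above it in MSC 1 and MSC-EPO 3, and Pou4f2 minus Nefh reached it in DPSC 1 and DPSC 3. In sham, 18 of the 45 pairs had all 3 libraries outside the NT range, where 34.7% of all pairs of tested genes did. That count too is near the share of all pairs. The pairs named here were found by looking at all 45, with values known, and were not tested.

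**Figure D5:**
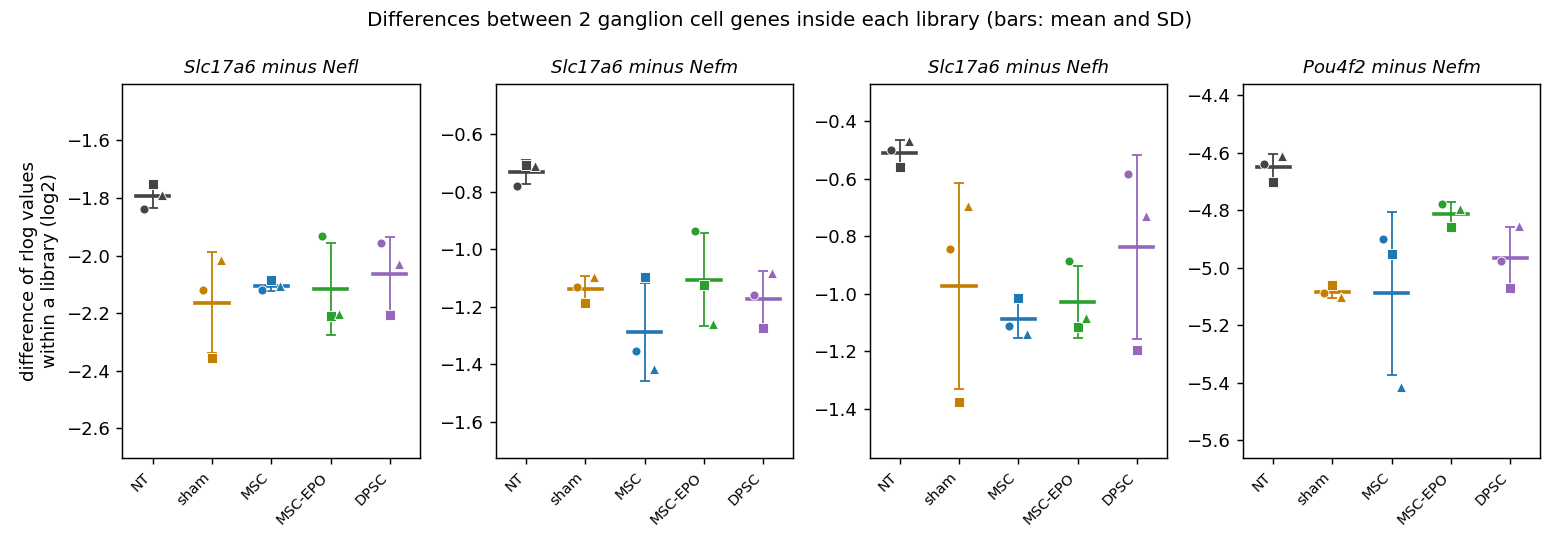
Differences of rlog values between 2 RGC genes inside each library (log2, vertical axes) by group, with points for the 3 libraries and bars for the mean and SD, for 4 of the 6 pairs. For Slc17a6 minus Nefl the NT libraries lie at -1.84 to -1.75 and all other libraries at -1.93 or below. Such pairs were 6 of 45, near the 15.6% of all pairs of tested genes, and were not tested.

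Further RGC genes were taken from lists. Of 16 tested genes enriched in RGCs, 0 were called in any of the 8 comparisons, and 1 was called lower in MSC-EPO against NT without MSC-EPO 3. Their median difference between MSC and NT was -0.22, with 14 of 16 below 0. Nrn1, neuritin, was the lowest, with values of 8.69, 8.71 and 9.10 in MSC and 9.58, 9.71 and 9.59 in NT (difference -0.79, adjusted p = 0.0735). Axonal cytoskeleton and transport genes (15) and genes of the axon initial segment and node (16) also had 0 called in any comparison, with 1 axonal gene called lower in MSC-EPO without MSC-EPO 1 or without MSC-EPO 3 and 1 gene of the initial segment higher without MSC-EPO 3, each against NT. In MSC against NT their medians were -0.10 and -0.03. In MSC-EPO 3, where the 10 genes stood at 0.21, these lists stood at -0.34 and -0.46.

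Genes of RGC subtypes moved in both directions. Opn4, melanopsin of the intrinsically photosensitive RGCs, had values of 7.20, 7.20 and 7.28 in MSC and 8.16, 8.49 and 8.42 in NT, and fell by 1.13 (SE 0.20, adjusted p = 0.00288). In MSC-EPO, at 7.36, 7.54 and 7.58, Opn4 fell by 0.87 (adjusted p = 0.0135), while differences of -0.43 in sham (adjusted p = 0.398) and -0.62 in DPSC (adjusted p = 0.117) did not pass. Opn4 was thus lower in all 3 MSC-EPO libraries, replicate 3 included. Cartpt, a peptide of direction-selective RGCs that amacrine cells may also express, fell by 1.09 in MSC (adjusted p = 0.0325), with values of 9.99, 10.44 and 10.43 beside 11.27 to 11.46 in NT, and stood at -0.57 in sham (adjusted p = 0.516), -0.77 in MSC-EPO (adjusted p = 0.139) and -0.65 in DPSC (adjusted p = 0.325). The MSC call of Cartpt was lost without any of NT 1, NT 2, NT 3, MSC 1 or MSC 2 (-1.17 to -0.94). Without MSC-EPO 3, Cartpt was called lower in MSC-EPO (-1.21, adjusted p = 0.0045). The MSC-EPO call of Opn4 was lost without NT 2 or NT 3 (adjusted p = 0.0583 and 0.0566) and with libraries centred on general neuronal genes (-0.68, adjusted p = 0.129).

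Kcng4, a modifier subunit of potassium channels used to mark alpha RGCs, rose in every NaIO3 group. Its values were 8.70, 8.47 and 8.78 in NT and 9.57 or more in the 12 other libraries, with rises of 1.18 in sham (adjusted p = 0.00577), 1.53 in MSC (adjusted p = 0.000297), 1.53 in MSC-EPO (adjusted p = 0.000176) and 1.33 in DPSC (adjusted p = 0.00163). Whether alpha RGCs or other cells of the whole retina carried the rise of Kcng4 was not tested. Spp1, osteopontin, which alpha RGCs and also macrophages express, rose by 1.55 in MSC (adjusted p = 0.0082) and 1.47 in MSC-EPO (adjusted p = 0.0139). It stood at 0.64 in sham (adjusted p = 0.481) and 0.94 in DPSC (adjusted p = 0.162). The MSC-EPO call of Spp1 was lost without NT 1, NT 3 or MSC-EPO 2 (adjusted p = 0.0536, 0.0641 and 0.0522). With libraries centred on general neuronal genes, Kcng4 in sham was 1.24 higher but not called (adjusted p = 0.0568). Of the 14 subtype genes, 2 were called higher in MSC against NT (11% of all tested genes were called higher) and 2 lower (6.37% of all tested genes). In MSC-EPO 2 were higher (5.83%) and 1 lower (5.81%), in DPSC 1 was higher (1.43%) and 0 lower (1.41%), and in sham 1 was higher (0.558%) and 0 lower (0.331%).

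Injury-response genes of RGCs were called higher against NT for 4 of 13 in MSC (11% of all tested genes), 3 in MSC-EPO (5.83%), 1 in DPSC (1.43%) and 0 in sham (0.558%), and 0 were lower. Differences were below 0 for 4 of 13 in MSC, 4 in MSC-EPO, 6 in DPSC and 5 in sham. Their medians were 0.20, 0.27, 0.09 and 0.31. With a replicate block, or without MSC 1 and MSC-EPO 3, 1 gene was called lower in MSC. The 4 genes named next are those of smallest adjusted p. Hspb1, a small heat shock protein that glia also express, had values of 8.81, 8.63 and 8.76 in MSC and 6.78 to 7.24 in NT. It rose by 1.72 in MSC (adjusted p = 0.00213), 1.84 in MSC-EPO (adjusted p = 0.00142) and 2.26 in DPSC (adjusted p = 0.00163), and stood at 0.83 in sham (adjusted p = 0.21, and 0.0138 with sham and NT fitted alone). Jun, a transcription factor of the axon injury response, rose by 0.85 in MSC (adjusted p = 0.00461) and 0.79 in MSC-EPO (adjusted p = 0.00848). Tnfrsf12a, the TWEAK receptor, rose by 0.93 in MSC (adjusted p = 0.0131) and 1.18 in MSC-EPO (adjusted p = 0.00514). Ecel1, a peptidase induced in injured neurons, rose by 1.76 in MSC (adjusted p = 0.0286), with values of 6.52, 8.23 and 7.67 beside 5.64 to 5.86 in NT, and stood at 1.33 in MSC-EPO (adjusted p = 0.105). Without MSC-EPO 3, Ecel1 was called in MSC-EPO too (1.71, adjusted p = 0.0388), and 1 of the 13 genes was called lower. The MSC call of Ecel1 was lost without any library but MSC 1, and with quantile normalization Ecel1 (adjusted p = 0.0579) and Tnfrsf12a (adjusted p = 0.0545) were not called in MSC. The cellular source of these genes in whole retina was not tested. In the same comparison, 5 of 6 astrocyte and gliosis markers were called higher.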

How the data were processed

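RNA sequencing was performed by the authors on whole rat retinas (QIAseq stranded mRNA libraries), 3 libraries in each of the groups NT, sham, MSC, MSC-EPO and DPSC. Per the labels and the study's methods, reads were quantified by the authors with Salmon (version 1.1.0) on Rnor_6.0 transcripts, summed to genes with tximport and transformed with DESeq2 (given as 3.2 in the labels). The deposited log2 values are rlog values, corrected for library size and shrunken by the authors. They hold no counts, so no depth is given. A table of the whole series with 15 columns of per-sample values, whose names match no label, was not used.

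The values were analysed as deposited with limma 3.58.1 in R 4.3.3 (group means, variance moderated with a trend on the mean). The test took the 15424 of 20375 genes whose mean reached 3.32 (log2 of 10), in 8 comparisons of all 15 libraries in 1 fit, with Benjamini-Hochberg adjustment. List levels are averages over the tested genes of a list, set relative to NT. The 18 lists beside the RGC genes were written by hand. Eligible to be named were, from each list, at most 4 genes (those of smallest adjusted p), besides the 10 RGC genes, and the 10 genes most correlated with their mean and the 3 most correlated with each. The members, the lists and the comparisons were chosen with earlier results of these data known, so the known patterns carry no independent support. Same-numbered libraries of MSC and MSC-EPO deviated together (r = 0.159 to 0.279 for the 3 pairs, -0.365 to 0.064 for the other 6). This likeness was seen in the data, is not given in the labels and does not establish a pairing. The comparison of MSC-EPO with MSC was also fitted with a block. The fit was tested on simulated data with known changes. The alternatives were a fold threshold, other filters, scalings, library weights, subsets of libraries, a block for the replicate number, no variance trend, and each library left out in turn. Promoters were taken from RefSeq tables of build GRCr8. Some genes that the naming rule selects are not reported here.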

Additional observations from a re-analysis of the deposited data

How the results depend on the processing

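The 10 RGC genes in all 8 comparisons and 9 further named genes in the 4 comparisons with NT gave 116 results and 2069 values under the alternatives, of which 1887 kept their direction and call, 37 lost a call, 52 gained one and 93 changed sign. Of the 93, 0 belonged to a result that was called. The counts of RGC genes called gave 143 values, of which 128 stayed within 1.5 times. In MSC against NT the count of 2 became 0 with a fold over 2, 1 with no filter, 4 with the 2 groups alone, 1 when centred on general neuronal genes, and 0 to 1 with a library left out. In MSC-EPO against NT the count of 0 became 7 with array weights, 2 without MSC 1 and MSC-EPO 3, and 0 to 2 with a library left out. Array weights gave 3 in DPSC against NT and 7 in MSC-EPO against sham, in a fit whose weights did not converge. Counts of all genes called depended on the setting too: from 137 in sham against NT to 27 without NT 3, 1331 with the 2 groups alone and 3182 with array weights, from 2677 in MSC against NT to 1347 without NT 3, and from 0 in MSC against sham to 698 without MSC 3. The fit of 12 libraries leaves out DPSC and gives no value for the comparisons of DPSC. A test on counts was not run, since the values are not counts. The study's DESeq2 test, at an adjusted p under 0.05 and a fold over 2, reported many genes in MSC and in MSC-EPO against sham. This fit called 0 and 4 genes in those comparisons. Centring on neuronal genes, leaving out MSC 1 with MSC-EPO 3, and the block with MSC and MSC-EPO alone were chosen after the data were seen. The cause of these changes was not tested.

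Over 30 pairs of libraries with the same number in different groups, deviations from group means correlated between -0.441 and 0.653, with 12 over 0.1. Their median was -0.0225, and that of the 60 pairs with different numbers was -0.008. Only between MSC and MSC-EPO were all 3 over 0.1. This was found by looking at all pairs of groups and does not establish a pairing. In the other pairs of groups at least 1 of the 3 was not over 0.1. With a replicate block in the fit of 15 libraries, 2 RGC genes (Slc17a6 and Pou4f2) were called in MSC against NT and 0 in the other comparisons, and all genes called went from 137 to 150 in sham against NT and from 2677 to 2726 in MSC against NT. Ecel1 in MSC-EPO against NT (adjusted p = 0.0373) and Jun in DPSC against NT (adjusted p = 0.0484) gained a call with the block.

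Under quantile normalization, the sign changed for Rbpms (-0.084), Sncg (0.013) and Nefh (0.084) in MSC-EPO against NT and Nefh (0.024) in DPSC against NT. Pou4f1 (0.076) in MSC-EPO against MSC did so too. Array weights changed the sign of Thy1 (-0.0049) in sham against NT and Nefm (0.022) in MSC against NT. Rbpms (-0.022) in MSC-EPO against NT and Pou4f2 (0.069), Pou4f3 (0.045) and Rbpms (0.15) in DPSC against sham did so too. Slc17a6 (-0.14), Sncg (-0.034), Nefl (-0.057), Nefm (-0.43), Nefh (-0.17) and Thy1 (-0.12) in MSC-EPO against MSC did so too. Centring on general neuronal genes changed the sign of Nrn1 (0.042) in sham against NT and Pou4f1 (0.033), Rbpms (0.30), Nefm (0.067) and Nefh (0.090) in MSC against NT. Pou4f3 (0.010), Sncg (0.11), Nefm (0.033), Nefh (0.18) and Thy1 (0.051) in MSC-EPO against NT and Pou4f3 (0.062), Sncg (0.047), Nefl (0.10), Nefh (0.16), Thy1 (0.049) and Nrn1 (0.022) in DPSC against NT did so too. Pou4f1 (0.054) and Rbpms (0.021) in MSC against sham and Pou4f2 (0.043) and Pou4f3 (0.015) in MSC-EPO against sham did so too. Pou4f2 (0.13), Pou4f3 (0.067), Rbpms (0.13) and Nefm (0.0099) in DPSC against sham and Rbpms (-0.073) and Nefm (-0.034) in MSC-EPO against MSC did so too. Leaving out MSC 1 and MSC-EPO 3 changed the sign of Rbpms (-0.0025) in MSC-EPO against NT and Slc17a6 (-0.11), Sncg (-0.045), Nefl (-0.13), Nefm (-0.34), Nefh (-0.19) and Thy1 (-0.16) in MSC-EPO against MSC. With a library left out, differences crossed 0 in sham against NT for Sncg from -0.091 to 0.24, Thy1 from -0.082 to 0.21 and Nrn1 from -0.11 to 0.089. Rbpms from -0.12 to 0.097 did so in MSC against NT. Pou4f3 from -0.40 to 0.030, Rbpms from -0.071 to 0.14, Sncg from -0.43 to 0.11 and Nefh from -0.22 to 0.12 did so in MSC-EPO against NT. Pou4f3 from -0.22 to 0.0074, Sncg from -0.36 to 0.043, Nefl from -0.21 to 0.040, Nefm from -0.019 to 0.23, Nefh from -0.12 to 0.032 and Nrn1 from -0.39 to 0.061 did so in DPSC against NT. Pou4f2 from -0.35 to 0.057, Pou4f3 from -0.34 to 0.089 and Sncg from -0.52 to 0.023 did so in MSC-EPO against sham. Slc17a6 from -0.31 to 0.038, Pou4f2 from -0.17 to 0.19, Pou4f3 from -0.16 to 0.067, Rbpms from -0.11 to 0.048 and Nefm from -0.23 to 0.021 did so in DPSC against sham. Pou4f1 from -0.17 to 0.067, Rbpms from -0.049 to 0.15, Nefm from -0.17 to 0.32 and Thy1 from -0.009 to 0.31 did so in MSC-EPO against MSC.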

Other observations

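Further gene lists were described that no comparison above turned on. Astrocyte and gliosis markers stood at 1.14 to 1.45 above NT in sham and at 1.88 to 2.11 in MSC, and 2 of 6 were called higher in sham against NT. Müller glia markers had 3 of 6 called higher and 1 lower in MSC against NT, with levels of 0.22 to 0.44. Bipolar cell markers had 1 of 10 called lower in MSC and 1 of 10 in MSC-EPO. Horizontal cell markers had 0 of 3 called against NT, with levels of -0.80 in MSC-EPO 3 and -0.56 in MSC 1. Oligodendrocyte markers, which come from optic nerve and not from rat retina, had 1 of 6 called higher in MSC and 1 of 6 in MSC-EPO, with levels of -0.29 to 0.43 in the NT libraries. Fibroblast and mesenchymal markers stood at 1.75, 0.60 and 0.14 in MSC and at 1.27, 0.93 and -0.50 in MSC-EPO, with 1 of 9 called higher and 1 lower in both. Several of these counts moved with a library left out. The Müller glia counts in MSC were 2 higher and 0 lower without any 1 of the NT libraries, the bipolar count in MSC was 0 without NT 2 or without MSC 2 and that in MSC-EPO was 2 without MSC-EPO 1 or without MSC-EPO 3, 1 of 3 horizontal cell markers was called lower in MSC without MSC 2, and the fibroblast count of higher calls in MSC was 0 without NT 3 or without MSC 1 and 2 without MSC 3.

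Among genes outside the 10, the nearest in pattern to Rbpms were Cenpb (r = 0.899), Tinagl1 (0.837) and LOC100912228 (0.829), and the nearest to Pou4f1 was Mpp2 (0.881). Ube2m was nearest to Pou4f3 (0.961), and Fbxo2 was nearest to Nefl (0.95), Acot7 to Sncg (0.966) and Cplx1 to Thy1 (0.966), over 15 libraries.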
